A study of Mus musculus with 5 samples.

Results

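In IL-2-activated natural killer cells (NKC), 10888 of 23008 H3K4me1 domains (47.3%) were short, lay away from promoters and had no Runx3 peak nearby. They are called Runx3-remote domains here. They were chosen by a rule on the peak coordinates: H3K4me1 peaks separated by less than 1 kb were joined into domains, and a domain was kept when it was narrower than 4 kb, its centre lay more than 1 kb from every annotated transcription start site (TSS), and no Runx3 peak lay within 5 kb of either edge. The other domains comprised 3912 distal domains that overlapped a Runx3 peak, 3674 distal domains with a Runx3 peak within 5 kb but none overlapping, 3472 domains centred within 1 kb of a TSS and 1062 distal domains of 4 kb or more.

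The chromatin came from splenic NKC of ICR mice, isolated by negative selection and grown for 7 days in 1000 units/ml of human recombinant IL-2; the labels call the cultured cells all NKp46+, while the study's methods describe a further sort for DX5+ cells and a culture that was nearly all NKp46+. All 5 libraries shared strain, treatment and time: 2 were made with an anti-Runx3 antibody, 1 with an anti-H3K4me1 antibody and 2 with non-immune rabbit serum (NIS), the control for peak calling. The lists hold 34204 H3K4me1 peaks, from 1 library by the labels although the study's methods speak of repeats, and 11676 Runx3 peaks from the joined Runx3 libraries, as chromosome, start and end in mm9, with no height or score and no values per library. Every value below is therefore without replicate error, the read depth behind a peak is unknown from the lists, and a place without a listed Runx3 peak is one where none was called, which is not the same as one without Runx3.

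H3K4me1, the mono-methylated form of lysine 4 on histone H3, marks enhancers and the flanks of active promoters, and it is laid down both at enhancers in use and at enhancers that are only primed. Runx3 is a Runt-domain transcription factor of cytotoxic lymphocytes that binds DNA as a heterodimer with Cbfb at RUNX sites. ETS factors, the AP-1 dimers of Fos, Jun and Batf proteins, and the T-box factors Eomes and T-bet also bind enhancers of these cells. The question addressed was what the H3K4me1-marked distal regions away from Runx3 peaks share in sequence, shape and gene neighbourhood, and where they differ from those that Runx3 overlapped.

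The following sequences show what such regions look like at NKC genes. They are the central 200 bp, on the plus strand of mm9, of the Runx3-remote domain closest to the TSS of the 2 genes holding most of these domains (ties in alphabetical order) in each of 4 lists (NK cell receptors, NK cell transcription factors, cytotoxic effectors, IL-2 and IL-15 signalling). Capitals mark matches, on either strand, to RUNX (TGTGGT or TGTGGC or TGCGGT or TGCGGC), ETS (AGGAAA or AGGAAG or CGGAAA or CGGAAG) or AP-1 (TGACTCA).
*Il18rap*, chr1:40570531-40570730: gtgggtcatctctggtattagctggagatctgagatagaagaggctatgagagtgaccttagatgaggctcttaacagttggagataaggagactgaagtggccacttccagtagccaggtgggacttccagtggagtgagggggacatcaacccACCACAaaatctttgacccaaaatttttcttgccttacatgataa
*Itga1*, chr13:115897460-115897659: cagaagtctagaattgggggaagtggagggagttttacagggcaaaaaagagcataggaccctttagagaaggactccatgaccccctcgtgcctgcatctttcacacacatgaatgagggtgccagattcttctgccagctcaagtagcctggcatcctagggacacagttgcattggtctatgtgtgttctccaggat
*Id2*, chr12:25793710-25793909: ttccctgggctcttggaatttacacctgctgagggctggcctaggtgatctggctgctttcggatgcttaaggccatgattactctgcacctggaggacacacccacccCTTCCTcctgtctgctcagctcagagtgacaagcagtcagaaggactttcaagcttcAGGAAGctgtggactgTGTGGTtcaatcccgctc
*Bach2*, chr4:32657132-32657331: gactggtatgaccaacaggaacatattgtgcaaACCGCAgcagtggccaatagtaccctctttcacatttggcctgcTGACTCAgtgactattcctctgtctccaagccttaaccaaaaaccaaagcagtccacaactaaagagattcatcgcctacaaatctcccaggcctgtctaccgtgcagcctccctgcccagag
*Fasl*, chr1:163679477-163679676: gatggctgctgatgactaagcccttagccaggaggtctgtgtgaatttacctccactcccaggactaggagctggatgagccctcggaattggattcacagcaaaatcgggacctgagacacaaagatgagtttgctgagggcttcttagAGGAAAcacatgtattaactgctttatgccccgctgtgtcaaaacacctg
*Ifng*, chr10:117896038-117896237: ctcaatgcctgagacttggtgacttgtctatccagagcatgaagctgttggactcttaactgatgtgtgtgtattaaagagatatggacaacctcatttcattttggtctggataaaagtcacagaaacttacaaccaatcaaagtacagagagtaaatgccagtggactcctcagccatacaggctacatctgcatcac
*Bcl2*, chr1:108603286-108603485: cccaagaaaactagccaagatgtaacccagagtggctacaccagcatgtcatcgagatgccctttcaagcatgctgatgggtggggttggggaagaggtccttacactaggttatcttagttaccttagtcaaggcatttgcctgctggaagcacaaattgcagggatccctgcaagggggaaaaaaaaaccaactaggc
*Myc*, chr15:61821085-61821284: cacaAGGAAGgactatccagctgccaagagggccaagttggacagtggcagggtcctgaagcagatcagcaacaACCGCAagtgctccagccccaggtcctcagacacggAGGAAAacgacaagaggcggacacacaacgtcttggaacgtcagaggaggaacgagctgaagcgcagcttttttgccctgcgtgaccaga

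Of these 8 windows, 4 held a RUNX match, 3 an ETS match and 1 an AP-1 match, and 3 (*Itga1*, *Ifng* and *Bcl2*) held none. The *Il18rap* window lay 1.58 kb upstream of the TSS of the gene for the accessory chain of the IL-18 receptor, between genes. Its single RUNX match read ACCACA on the plus strand, the reverse complement of TGTGGT. The *Id2* window, 12.9 kb upstream of the gene for an inhibitor of E proteins required by the NK lineage, held 1 RUNX and 2 ETS matches. The *Bach2* window was intronic and held a RUNX match and the AP-1 match. The *Myc* window fell in an exon of *Myc*, 2.21 kb downstream of the TSS used, with 1 RUNX and 2 ETS matches. The *Ifng* window lay 18.04 kb downstream of the TSS of interferon-gamma and its domain was 9.26 kb from the nearest Runx3 peak.

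Runx3-remote domains were narrow. The median domain spanned 727 bp (quartiles 530 and 1232 bp, extremes 135 and 3991 bp), and together they covered 10.9 Mb. The domains that Runx3 overlapped had a median of 1438.5 bp, and those with Runx3 within 5 kb but none overlapping had a median of 756 bp. A single H3K4me1 peak made up 8609 Runx3-remote domains, while 1795 joined 2 peaks, 424 joined 3, 56 joined 4 and 4 joined 5. At least 1 kb of width was reached by 32.8% of Runx3-remote domains (95% Wilson interval 32.0% to 33.7%) and by 64.7% (63.2% to 66.2%) of those overlapping Runx3. More than 1 peak was found in 20.9% and 47.4%, respectively. Width was one of the values the rule used, so these shares are a description. A wider domain has more room to overlap a Runx3 peak, and the part of this in the difference was not tested.

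**Figure D1:**
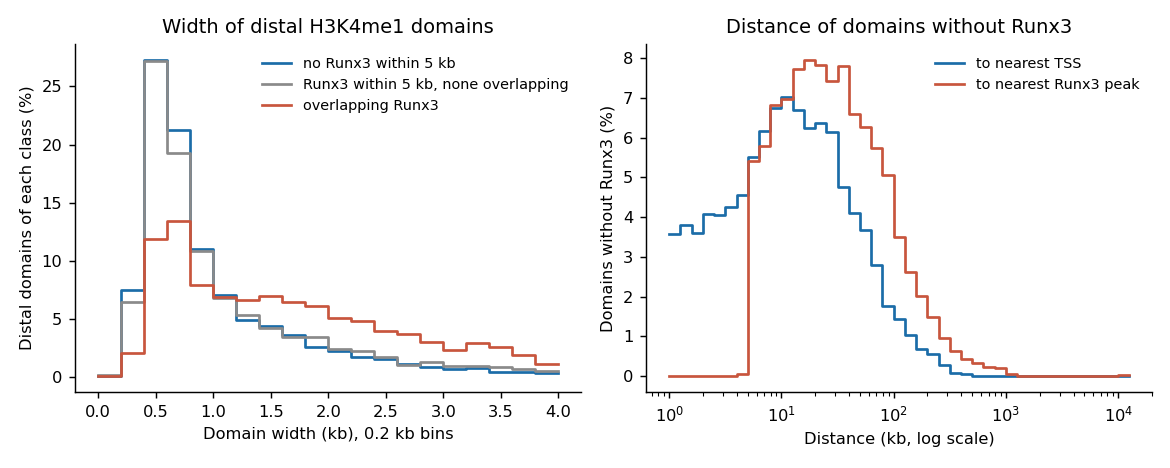
Left, share (%) of each class of distal H3K4me1 domains by width in bins of 0.2 kb, for domains without a listed Runx3 peak within 5 kb (blue), with one within 5 kb but none overlapping (grey) and overlapping one (red). The blue and grey lines nearly coincide (medians 727 and 756 bp), while the red line is spread to larger widths (median 1438.5 bp). Right, distance in kb (log scale) of the Runx3-remote domains to the nearest TSS (median 11.2 kb) and to the nearest Runx3 peak (median 26.4 kb), as % of domains.

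The domains lay a median of 11.2 kb from the nearest TSS and 26.4 kb from the nearest Runx3 peak. These distances were used by the rule and are given as a description. Of the 10888, 3032 lay 1 to 5 kb from a TSS, 4191 at 5 to 20 kb, 2316 at 20 to 50 kb, 898 at 50 to 100 kb and 451 beyond 100 kb. The nearest Runx3 peak was under 20 kb away for 4441 domains, at 20 to 50 kb for 3217, at 50 to 100 kb for 1857, at 100 to 500 kb for 1270 and beyond 500 kb for 103. At the limits of the rule, the widest domain kept measured 3991 bp and the narrowest left out 4009 bp, the closest kept lay 1001 bp from a TSS and the farthest left out 1000 bp, and the closest kept lay 5001 bp from a Runx3 peak and the farthest left out 5000 bp.

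Runx3-remote domains lay in introns more often than domains overlapping Runx3. Position was compared by two-sided Fisher's exact tests, adjusted by Benjamini-Hochberg over 6 features. An intron held the centre of 57.7% (56.8% to 58.6%) of them against 49.9% (48.4% to 51.5%), with an odds ratio of 1.37 and an exact adjusted p of 8.40e-17. Intergenic sequence held 35.4% against 44.2% (odds ratio 0.690, exact adjusted p = 4.00e-22), and exons held 6.92% against 5.83% (odds ratio 1.20, exact adjusted p = 0.0201), the last not past the threshold among domains under 2 kb. The share farther than 50 kb from any TSS was 12.4% (11.8% to 13.0%) against 14.4% (13.4% to 15.6%), given as a description since the rule used this distance. Domains with Runx3 within 5 kb but none overlapping were in introns in 56.9% of cases and in intergenic sequence in 36.5%, both nearer to the Runx3-remote shares.

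They occurred on every autosome, at 2.67 per Mb on chromosome 3 to 7.68 per Mb on chromosome 11, and made up between 42.5% (chromosome 19) and 52.4% (chromosome 14) of a chromosome's domains. Chromosome X held 22, or 0.132 per Mb, which was 47.8% of its domains. The H3K4me1 list had 51 peaks there and the Runx3 list 60. The next H3K4me1 domain of any class lay a median of 8218.5 bp from a Runx3-remote domain. Of the Runx3-remote domains, 3991 (36.7%) had another domain less than 5 kb away, and 1250 (11.5%) had none within 50 kb.

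RUNX, ETS, AP-1, PU.1 and T-box motifs were each more frequent in Runx3-remote domains than in sequence around them. The central 400 bp of each domain was set against windows of the same length centred 10 kb to either side that overlapped no peak of either list, of which there were 19513. A RUNX motif was present in 63.3% (62.4% to 64.2%) of domains and 49.9% (49.2% to 50.6%) of these flanking windows, an odds ratio of 1.74 (95% interval 1.66 to 1.82, exact adjusted p = 5.84e-113). An ETS motif was present in 77.1% against 67.0% (odds ratio 1.66, 1.57 to 1.75, exact adjusted p = 4.32e-77). The AP-1 motif was present in 12.8% against 6.70% (odds ratio 2.04, 1.88 to 2.21, exact adjusted p = 9.46e-68). The p-values are from two-sided Fisher's exact tests adjusted over 19 motifs. Neighbouring regions depend on one another and are no replicates of a condition, and each p is a description of the lists at hand.

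The longer PU.1 site GAGGAAGT, which contains the ETS word AGGAAG, was found in 5.29% of Runx3-remote domains against 2.51% of flanking windows (odds ratio 2.17, 1.92 to 2.46, exact adjusted p = 1.59e-34). PU.1 itself is best known from myeloid and B cells, and other ETS factors bind related sites. The T-box site GGTGTGA, of the kind bound by Eomes and T-bet, was found in 8.58% against 5.57% (odds ratio 1.59, 1.45 to 1.74, exact adjusted p = 6.57e-23). RUNX, ETS, AP-1, T-box and PU.1 shares were each higher in the domains on 19 of 19 autosomes. By autosome the RUNX share ran from 58.4% to 68.4% in the domains and from 46.7% to 53.2% in the flanking windows, and the AP-1 share from 10.1% to 17.3% and from 5.13% to 9.39%.

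Base composition moved with these shares. Mean GC content was 50.1% in the central 400 bp of Runx3-remote domains, 49.2% in domains overlapping Runx3, 45.9% in flanking windows and 54.3% in domains at promoters. When windows were compared within 10 strata of GC content (Mantel-Haenszel test), the odds ratio was 1.46 (1.39 to 1.53) for RUNX, 1.51 (1.42 to 1.60) for ETS, 1.99 (1.82 to 2.16) for AP-1, 1.37 (1.25 to 1.51) for T-box and 1.84 (1.62 to 2.10) for PU.1, all past the threshold of 0.05. Other motifs moved as well, some of them across 1. The GATA motif (AGATAA or TGATAA) was less frequent in the domains than in flanking windows, 24.7% against 32.1% (odds ratio 0.694), but had an odds ratio of 1.01 within GC strata. The GC-rich SP1 box GGGCGG was more frequent (9.001% against 6.39%, odds ratio 1.45) but had 0.875 within strata. Within strata the E-box CAGCTG kept an odds ratio of 1.17 (1.10 to 1.24) from 1.58. The nuclear receptor half-site AGGTCA kept 1.18 (1.12 to 1.25) from 1.32, and both passed the threshold. The E-box CAGGTG, bound by Zeb factors and E proteins, had 1.06 from 1.37 (Mantel-Haenszel chi-square, adjusted p = 0.0525).

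Sites for the IL-2-responsive STAT factors (TTCNNNGAA) were at 11.2% in the domains and 11.7% in flanking windows (odds ratio 0.947, exact adjusted p = 0.167), and 1.07 within GC strata (0.988 to 1.16). Sites for NFAT (TGGAAA, 28.9% against 31.3%), IRF (GAAA and GAAA with 2 bases between, 4.56% against 5.19%), TCF and LEF (CTTTGAA or CTTTGAT, 12.8% against 14.5%) and OCT (ATGCAAAT, 1.45% against 2.18%) were less frequent in the domains before stratification, past the threshold, although over whole domains NFAT and IRF did not pass, nor did IRF with a joining gap under 2 kb. Within GC strata the IRF odds ratio was 1.18 (1.05 to 1.33) and that of C/EBP (TTGCNNAA) 1.16 (1.08 to 1.25), while those of NFAT, TCF and LEF, and OCT had intervals that included 1. The KLF site GGGTGTGG (5.07% against 3.89%) and the EBF site (TCCC and GGGA with 2 bases between, 1.43% against 1.07%) passed without strata but not within them, and EBF also lost its call in 4 of the unstratified alternatives. CTCF sites were rare on both sides (0.413% against 0.328%, exact adjusted p = 0.244) and passed over whole domains and with a joining gap under 500 bp.

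**Figure D2:**
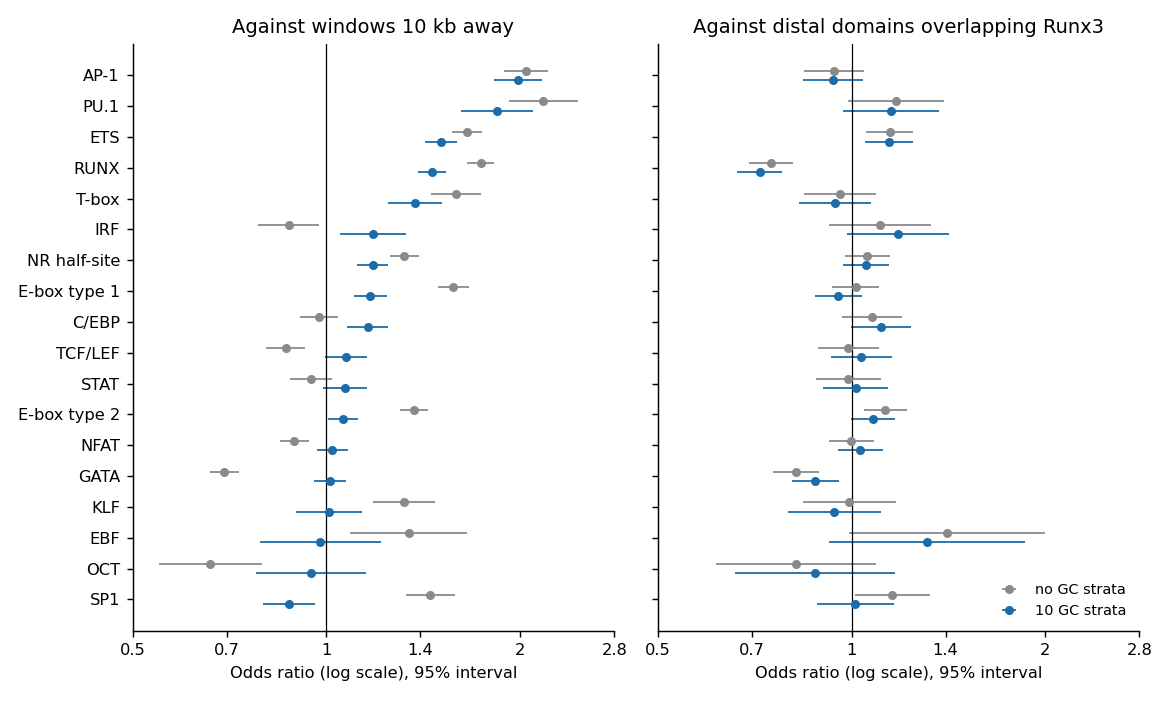
Odds ratio (log scale, bars show the 95% interval) of a motif being present in the central 400 bp of Runx3-remote domains, left against flanking windows 10 kb away and right against distal domains overlapping a Runx3 peak, without strata (grey) and within 10 strata of GC content (blue). E-box type 1 is CAGCTG, E-box type 2 is CAGGTG, and CTCF is left out. On the left the intervals of AP-1, PU.1, ETS, RUNX, T-box, the NR half-site and both E-box types stay above 1 in both colours. On the right RUNX lies below 1 (0.749 and 0.720), as does GATA (0.820 and 0.878), and ETS lies above 1 (1.15 and 1.14).

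RUNX motifs were less frequent in Runx3-remote domains than in the domains Runx3 overlapped, and ETS motifs were not. The classes were split by the Runx3 peaks, and the study found a RUNX motif in most such peaks. A RUNX deficit is therefore partly built into this comparison, and its RUNX values are a description. The RUNX share was 63.3% against 69.8% (68.3% to 71.2%), an odds ratio of 0.749 (0.692 to 0.810, exact adjusted p = 6.54e-12) and of 0.720 within GC strata, and it was higher in the Runx3-remote domains on 1 of 19 autosomes. The ETS share was 77.1% against 74.6%, an odds ratio of 1.15 (1.05 to 1.25, exact adjusted p = 0.0116) that did not pass with the central 200 bp (1.04). GATA motifs were less frequent, 24.7% against 28.6% (odds ratio 0.820, exact adjusted p = 2.31e-05), and CAGGTG more frequent, 34.2% against 31.5% (odds ratio 1.13, exact adjusted p = 0.0119, but 1.08 with Mantel-Haenszel adjusted p = 0.223 within GC strata). The central 400 bp of a domain of more than 1 peak can fall in the gap between peaks. Such domains were 20.9% of Runx3-remote domains and 47.4% of those overlapping Runx3. In Runx3-remote domains, gaps held GATA more often than peaks (15.7% against 12.1%, not past the threshold) and CAGGTG less often (14.3% against 22.4%). RUNX and ETS leaned opposite to their class differences. The part of peak number in the motif differences between the classes was not tested. AP-1 (12.8% against 13.5%, odds ratio 0.939, 0.844 to 1.05, exact adjusted p = 0.441) and T-box sites (8.58% against 8.92%, odds ratio 0.958, 0.842 to 1.09, exact adjusted p = 0.742) did not pass. AP-1 did pass when the Runx3 peak centre had to lie inside the domain (odds ratio 0.825, exact adjusted p = 0.00909). Its odds ratio was 1.001 with domains under 2 kb and 1.03 with a joining gap under 500 bp.

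The 4 RUNX words differed. TGTGGT was present in 37.8% of Runx3-remote domains, 47.3% of domains overlapping Runx3 and 28.7% of flanking windows. TGTGGC was present in 33.99%, 37.7% and 24.4%, and TGCGGT in 5.15%, 6.26% and 3.29%. TGCGGC was present in 5.15% of Runx3-remote domains and 5.01% of those overlapping Runx3 (odds ratio 1.03, 0.872 to 1.22, exact adjusted p = 0.767), and against flanking windows its odds ratio was 1.41 without and 0.924 (0.821 to 1.04) within GC strata. Over their whole lengths, 1877 of 10885 Runx3-remote domains without unknown bases (17.2%) held no RUNX motif, 1061 (9.75%) no ETS motif and 323 (2.97%) neither. The densities per kb, which do not depend on width in this way, were 2.44 RUNX motifs in Runx3-remote domains and 2.81 in domains overlapping Runx3, and 3.69 and 3.51 for ETS.

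Pairs of motifs up to 50 bp apart separated the classes further. A RUNX-RUNX pair was present in 11.01% of Runx3-remote domains, 19.6% of domains overlapping Runx3 and 5.67% of flanking windows (odds ratio 0.507 against the former, exact adjusted p = 1.33e-38, and 2.06 against the latter, exact adjusted p = 7.54e-61). An AP-1-RUNX pair was present in 2.89%, 5.24% and 1.09% (odds ratios 0.539 and 2.70), and an ETS-RUNX pair in 25.8%, 28.9% and 14.6% (0.853 and 2.03). Pairs without RUNX did not show the deficit. ETS-ETS pairs were at 21.7% and 19.9% (odds ratio 1.12, exact adjusted p = 0.0196), and AP-1-ETS pairs at 4.75% and 4.65% (odds ratio 1.02, exact adjusted p = 0.826), with 15.1% and 1.61% in flanking windows. The same pairs within GC strata kept their directions in both comparisons. The modules and words were examined after the shares of single motifs were seen. As for single RUNX motifs, the split by Runx3 peaks builds in part of the deficit in pairs with RUNX.

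Against domains with a Runx3 peak within 5 kb but none overlapping, the Runx3-remote domains were not poorer in RUNX motifs. Their share was 63.3% against 60.6% (odds ratio 1.12, exact adjusted p = 0.0334, and 1.08 with Mantel-Haenszel adjusted p = 0.232 within GC strata). ETS was at 77.1% against 74.6% (odds ratio 1.15, exact adjusted p = 0.0334), AP-1 at 12.8% against 11.9% (exact adjusted p = 0.304) and T-box at 8.58% against 7.40% (exact adjusted p = 0.0845). None of the 19 motifs passed within GC strata, and 4 of them, ETS, PU.1, RUNX and T-box, had an unadjusted Mantel-Haenszel p under 0.05.

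Counts of all 6-mers returned words of the same sites. Of all 6-mers, each counted with its reverse complement, 1019 (49.0%) were more frequent and 651 (31.3%) less frequent in the central 400 bp of Runx3-remote domains than in flanking windows at an adjusted p under 0.05, so a call by itself says little in this comparison. The 10 with the smallest p were all made of A and T only and less frequent, led by TAAAAA (21.8% against 39.7%) and TTAAAA (21.9% against 39.2%). Within GC strata the counts were 398 (19.1%) and 291 (14.0%), and all 10 with the smallest p were more frequent. They were CAGGAA (50.7% against 36.8%, odds ratio 1.55 within strata), AGGAAG (55.3% against 41.2%, 1.47), ACCACA (37.8% against 28.7%, 1.496), ACTTCC (31.6% against 22.0%, 1.496), ACAGGA (41.2% against 30.2%, 1.42), CACTTC (29.3% against 21.0%, 1.42), GACTCA (26.4% against 19.1%, 1.41), AACCAC (26.2% against 21.3%, 1.39), AGTCAC (27.0% against 20.03%, 1.37) and CCACAG (47.5% against 34.2%, 1.32). ACCACA is a RUNX word, and AACCAC as well as CCACAG overlap it. CAGGAA and AGGAAG and, on the other strand, ACTTCC hold the ETS core GGAA, and GACTCA is part of the AP-1 site.

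Compared with domains overlapping Runx3, 93 6-mers (4.47%) were more frequent and 79 (3.80%) less frequent. Within GC strata these counts fell to 8 (0.385%) and 23 (1.11%). The 4 with the smallest p were less frequent in Runx3-remote domains, and each matches the RUNX word TGTGGT or overlaps it in reverse complement: ACCACA (37.8% against 47.3%, odds ratio 0.676, exact adjusted p = 7.20e-22), AACCAC (26.2% against 33.8%, 0.696), CCACAA (26.2% against 32.5%, 0.739) and GACCAC (20.05% against 25.8%, 0.722). Next came GCTGCA (30.3% against 25.5%, 1.27) and CTGCGC (6.44% against 4.14%, 1.59), which were more frequent, and AAACCA (30.5% against 35.1%), CCACAG (47.5% against 52.4%), ATTAAT (4.43% against 6.60%) and ATGTGG (27.7% against 32.1%), which were less frequent. Within GC strata the 10 smallest p all belonged to words less frequent in Runx3-remote domains, led by ACCACA (odds ratio 0.677), AACCAC (0.707) and GACCAC (0.7004). Splitting the classes by Runx3 peaks favours RUNX words in the domains overlapping Runx3, so the ranks of such words are a description.

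Motif frequencies were highest within 300 bp of the domain centre. In 100-bp windows, a RUNX motif was present in 21.7% of Runx3-remote domains at the centre, 15.9% at 2 kb before it and 16.2% at 2 kb after it. An ETS motif was present in 30.2%, 24.5% and 23.7%, and an AP-1 motif in 3.43%, 1.72% and 1.59%. GC content was 50.9% at the centre and 46.8% already at 500 bp before it. In domains overlapping Runx3 the RUNX share at the centre was 26.8%, and at 1 kb before it still 18.5% against 15.8% in Runx3-remote domains. ETS and AP-1 shares at the centre, 29.7% and 3.81%, compared with 30.2% and 3.43% in Runx3-remote domains.

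**Figure D3:**
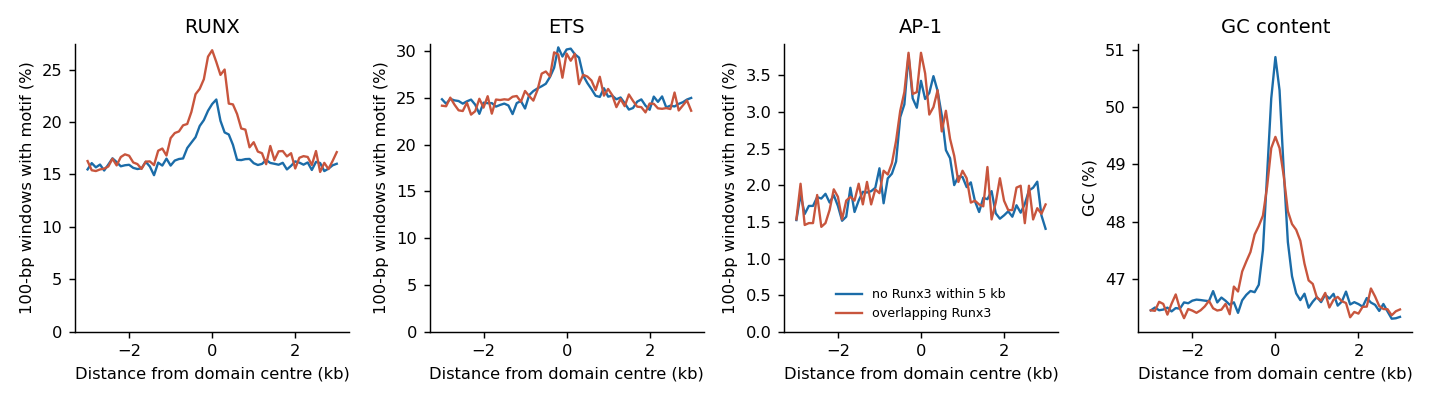
Share (%) of 100-bp windows holding a RUNX, ETS or AP-1 motif, and mean GC content (%), at distances of up to 3 kb from the centre of Runx3-remote domains (blue) and of distal domains overlapping Runx3 (red). All 4 measures are highest within 300 bp of the centre in both classes. The red RUNX curve is higher (26.8% against 21.7%) and the ETS and AP-1 curves nearly coincide there. The GC axis does not start at 0.

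H3K4me1 often lies on both sides of a factor-bound stretch that lacks the mark. In Runx3-remote domains made of 2 peaks the gap had a median length of 211 bp (quartiles 72 and 480.5 bp), and 926 gaps were at least 200 bp long. The central 200 bp of these gaps was compared with the central 200 bp of the wider of the flanking peaks by the exact McNemar test, with adjustment over 19 motifs. The AP-1 motif was more frequent in the gap, 9.61% against 5.72%: 87 domains held it only in the gap and 51 only in the peak (odds ratio 1.71, exact adjusted p = 0.0174). The E-box CAGGTG (14.3% against 22.4%, odds ratio 0.564, exact adjusted p = 0.000107) and the nuclear receptor half-site (13.9% against 19.9%, odds ratio 0.660, exact adjusted p = 0.00910) were less frequent there. RUNX (34.02% against 35.9%, exact adjusted p = 0.598) and ETS motifs (52.6% against 50.3%, exact adjusted p = 0.575) did not pass.

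GC content was 45.5% in the gaps and 50.5% in the peaks. Among 374 pairs whose GC content differed by under 5 percentage points, AP-1 was at 11.8% against 5.08% (odds ratio 2.39, exact adjusted p = 0.0177), whereas CAGGTG was at 17.4% against 19.3% (exact adjusted p = 0.725) and the half-site at 16.3% against 18.4% (exact adjusted p = 0.725). The SP1 box, at 5.61% against 1.60% (18 pairs held it in the gap alone and 3 in the peak alone, exact adjusted p = 0.0177), also passed in these pairs, but did not over all gaps (4.64% against 3.46%, exact adjusted p = 0.538). In gaps of at least 400 bp the AP-1 odds ratio was 1.20 and did not pass.

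Of the 1308 domains of 2 peaks that overlapped Runx3, 717 had a gap of at least 200 bp. These gaps held RUNX motifs more often than their peaks, 47.7% against 36.7% (odds ratio 1.56, exact adjusted p = 0.000683), and AP-1 at 9.76% against 4.74% (odds ratio 2.24, exact adjusted p = 0.00249). Their GC content was 46.2% against 49.5% in the peaks, and pairs close in GC content were compared for Runx3-remote domains only. Between the gaps of the classes, RUNX differed directly (34.02% against 47.7%, odds ratio 0.565, 0.463 to 0.690, exact adjusted p = 4.25e-07, Fisher's exact test, two-sided). AP-1 did not pass in that comparison (9.61% against 9.76%, odds ratio 0.983, 0.707 to 1.37). Because the classes were split by Runx3 peaks, the RUNX difference between their gaps is a description. The RUNX difference between gap and peak within the domains overlapping Runx3 is a description too. Those domains were chosen by Runx3 peaks, most of which held a RUNX motif in the study.

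**Figure D4:**
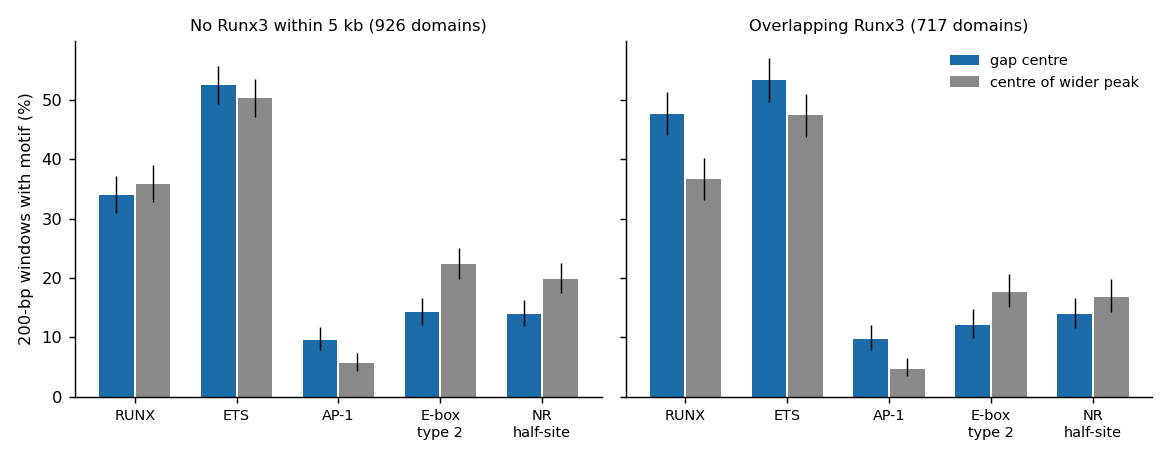
Share (%) of 200-bp windows holding a motif at the centre of the gap (blue) and at the centre of the wider flanking peak (grey). Domains are those of 2 peaks with a gap of at least 200 bp, without a listed Runx3 peak within 5 kb (left, 926 domains) and overlapping one (right, 717 domains). Bars start at 0, error bars are 95% Wilson intervals, and E-box type 2 is CAGGTG. AP-1 is higher in the gap in both panels (9.61% against 5.72% and 9.76% against 4.74%), RUNX only on the right (47.7% against 36.7%). The domains on the right were chosen by overlap with Runx3 peaks, so their RUNX bars are a description.

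The following sequences show the AP-1 match in the central 200 bp of the gap for 2 such domains nearest to genes of the NKC lists. They lay in introns of *Runx1* and *Runx2*, which encode the Runx3 paralogues. Capitals mark RUNX, ETS and AP-1 matches as above.
*Runx1*, chr16:92634404-92634603: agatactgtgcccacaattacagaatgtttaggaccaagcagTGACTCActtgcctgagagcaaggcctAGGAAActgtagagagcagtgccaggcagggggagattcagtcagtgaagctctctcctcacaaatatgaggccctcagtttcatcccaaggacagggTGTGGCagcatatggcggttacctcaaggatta
*Runx2*, chr17:44827026-44827225: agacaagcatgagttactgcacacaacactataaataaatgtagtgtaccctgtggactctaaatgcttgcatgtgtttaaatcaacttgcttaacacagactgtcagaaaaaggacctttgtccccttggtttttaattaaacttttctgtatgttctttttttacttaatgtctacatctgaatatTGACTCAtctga

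The *Runx1* gap was 660 bp long in a domain of 2564 bp and held 1 match each to AP-1, ETS and RUNX within 200 bp. The *Runx2* gap, of 572 bp, held the AP-1 match alone.

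Motif content was also compared among the Runx3-remote domains, as a description. The RUNX share was 62.1% (60.7% to 63.5%) in the 4441 domains 5 to 20 kb from a Runx3 peak, 63.7% at 20 to 50 kb, 64.4% at 50 to 100 kb and 65.0% (62.5% to 67.5%) beyond 100 kb, so that their intervals overlapped. The ETS share was 74.8% (73.3% to 76.3%) within 5 kb of a TSS and 78.1% (75.8% to 80.3%) beyond 50 kb. It was 72.2% (68.9% to 75.3%) in exons, 76.4% in introns and 79.1% (77.8% to 80.4%) between genes. AP-1 was at 12.0% (11.4% to 12.7%) in domains of 1 peak and 16.6% (15.0% to 18.4%) in domains of 2 peaks, but 12.2% (9.57% to 15.4%) in domains of 3 or more. Domains in exons had the highest GC content, 54.6%, against 49.7% in introns. Median width was 770 bp at 5 to 20 kb from Runx3 and 638 bp beyond 100 kb.

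Each domain was given to the protein-coding gene with the nearest TSS. At least 1 Runx3-remote domain was nearest to 5495 of 22350 protein-coding genes (24.6%). One such domain was nearest to 3205 of these genes, 2 to 4 to 1872, and 5 or more to 418, of which 58 had 10 or more. The 418 genes held 2913 domains (26.8%). They were long, with a median length of 102 kb against 12.2 kb for genes without any, and 89.0% of them had at least 1 Runx3 peak nearest as well, against 29.6% of all protein-coding genes. Of the 5495 genes, 2703 (49.2%) had no Runx3 peak nearest, and these held 3987 domains (36.6%).

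Against the 24.6% of all protein-coding genes, a Runx3-remote domain was nearest to a larger share of each of the 4 NKC lists. Of 37 NK cell transcription factors matched, 30 (81.1%) had a Runx3-remote domain, with 183 domains in all and a median of 5. Of 43 IL-2 and IL-15 signalling genes, 32 (74.4%) had one, with 127 domains. NK cell receptors had one in 19 of 44 genes (43.2%) and cytotoxic effectors in 16 of 35 (45.7%). With domains counted in the gene body or within 10 kb of it instead, the shares were 75.7%, 74.4%, 36.4% and 31.4% for the transcription factors, signalling genes, receptors and effectors, against 26.4% of all protein-coding genes. The lists differ in gene length, with medians of 81.1 kb for the transcription factors, 36.5 kb for the signalling genes, 15.97 kb for the receptors and 6.43 kb for the effectors against 15.4 kb for all protein-coding genes, and the part of length in these shares was not tested.

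A Runx3 peak was nearest to 31 of the transcription factors (83.8%), 28 signalling genes (65.1%), 32 receptors (72.7%) and 29 effectors (82.9%). Domains overlapping Runx3 were nearest to at least 1 gene in 12.4% of all protein-coding genes, and to 64.9%, 44.2%, 31.8% and 45.7% of the genes in these lists, in the same order. A Runx3-remote domain without any Runx3 peak nearest was found at 5 of 37 transcription factors, 7 of 43 signalling genes, 4 of 44 receptors and 3 of 35 effectors. Over all protein-coding genes it was found at 2703 of 22350. In the lists of other lineages a Runx3-remote domain was nearest to 12 of 30 T cell genes (40.0%), 13 of 29 myeloid and dendritic cell genes (44.8%), 8 of 26 B cell genes (30.8%), 3 of 21 erythroid and megakaryocyte genes (14.3%) and 5 of 30 genes of non-haematopoietic tissues (16.7%). The median number of such domains per gene was 0 in these 5 lists, as it was for the receptors and the effectors. Of the 29 myeloid genes, 10 (34.5%) had a Runx3 peak nearest. A Runx3-remote domain with no Runx3 peak nearest was found at 8 of the 29, against 2703 of 22350 protein-coding genes. The T cell list shares genes with NKC, such as *Cd247*, the CD3 zeta chain, and whether other cells added to these domains was not tested. The study's methods give the sort for DX5+ cells and the near purity named above.

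Among the receptors, *Il18rap*, *Itga1* and *Itga2* held 4 domains each and *Klrb1b* 3. *Itga2* encodes CD49b, the DX5 antigen of mouse NKC, and *Itga1* encodes CD49a. The 4 *Il18rap* domains lay within 10.6 kb of a TSS, and 3 of them were inside the gene. Among the effectors, *Fasl*, the death ligand, held 4 and *Ifng*, *Lyst* and *Stx11* 3 each. The *Fasl* domains all lay between genes, 38.8 to 82.6 kb from the TSS, beside 9 Runx3 peaks nearest to the same gene. *Stx11*, a syntaxin needed for granule release, had 3 domains in all, all of them Runx3-remote, and no Runx3 peak nearest.

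Of the transcription factors, *Id2* (chr12:25778666-25780957) led with 17 Runx3-remote domains among 43 domains of any class and with 28 Runx3 peaks nearest. All 17 lay between genes, 12.9 to 607 kb from the TSS, with a median width of 1174 bp, and their distance to Runx3 was 5.38 to 66.9 kb. RUNX motifs were present in 14 of them, ETS in 16 and AP-1 in 5. Over all Runx3-remote domains, also at whole length, 82.8% held a RUNX motif, 90.3% an ETS motif and 26.7% an AP-1 motif. *Bach2*, a repressor of effector programs, held 14 domains, 13 of them inside the gene, of which 13 had a RUNX motif and 14 an ETS motif. *Runx1* held 14 and *Runx2* 12 domains. The 14 at *Runx1* lay beside 21 Runx3 peaks and 11 distal domains overlapping Runx3, while *Runx2* had 3 Runx3 peaks and 1 such domain.

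In the IL-2 and IL-15 list, *Bcl2* (chr1:108434755-108610851), the survival gene maintained by IL-15, held 15 Runx3-remote domains and no domain overlapping Runx3 under 4 kb, with 14 of the 15 inside the gene. Their widths ran from 384 to 3458 bp, and the nearest was 7.47 kb from a TSS. A RUNX motif was held by 11 and an ETS motif by 13, against 82.8% and 90.3% of all Runx3-remote domains. *Myc* held 12, of which 9 lay inside the neighbouring gene *Pvt1*. The farthest was 471 kb from the TSS of *Myc*. *Jak1*, the kinase of the IL-2 receptor, held 11 within 34.3 kb of a TSS, and *Bcl2l11*, which encodes the pro-apoptotic Bim, held 9 beside 16 Runx3 peaks.

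Over all protein-coding genes, the 10 with most Runx3-remote domains were *Zmiz1* with 20, *Lpp* with 19, *Cux1*, *Fyn* and *Tgfbr2* with 18 each, *Id2* with 17, *Foxp1* with 16, *Bcl2* with 15, and *Bach2* and *Runx1* with 14 each. Each also had Runx3 peaks nearest, from 4 at *Fyn*, a Src-family kinase of receptor signalling, to 28 at *Id2*. At *Fyn* 18 of 24 domains were Runx3-remote, their median distance to Runx3 was 59.2 kb, and 16 held a RUNX and 17 an ETS motif. At *Tgfbr2*, the type II receptor for TGF-beta, which restrains NKC, 18 of 27 were Runx3-remote, 12 of them between genes. *Cux1* held all its 18 within the gene. At *Foxp1*, 10 of 16 were inside the gene and 7 inside *Eif4e3*, so some lay in both. *Zmiz1*, which encodes a coactivator, had ETS motifs in 20 of 20 domains and RUNX motifs in 18. These counts and those at *Fyn* stand beside 90.3% with ETS and 82.8% with RUNX over all Runx3-remote domains.

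Among genes to which no Runx3 peak was nearest, *9030617O03Rik* held 10 Runx3-remote domains, *Zfp217* 9, *Bace2* and *Gpr183* 8 each, and *Bach1*, *Ext2*, *Pdzd2*, *Phlpp1* and *Reps1* 7 each. The 7 domains at *Bach1*, a heme-binding repressor that recognises AP-1-like sites, lay 379 to 461 kb from the nearest Runx3 peak, and those at *Ext2*, an enzyme of heparan sulfate synthesis, 192 to 270 kb. These 2 genes had no H3K4me1 domain of another class. RUNX motifs were present in 5 of 7 at *Bach1* and 6 of 7 at *Ext2*. Over all Runx3-remote domains the shares were 82.8% for RUNX and 90.3% for ETS. *Gpr183*, the oxysterol receptor EBI2 that guides lymphocyte migration, had 8 domains with a median width of 1614 bp, all 8 of which lay inside the surrounding gene *Ubac2* and held both a RUNX and an ETS motif.

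**Figure D5:**
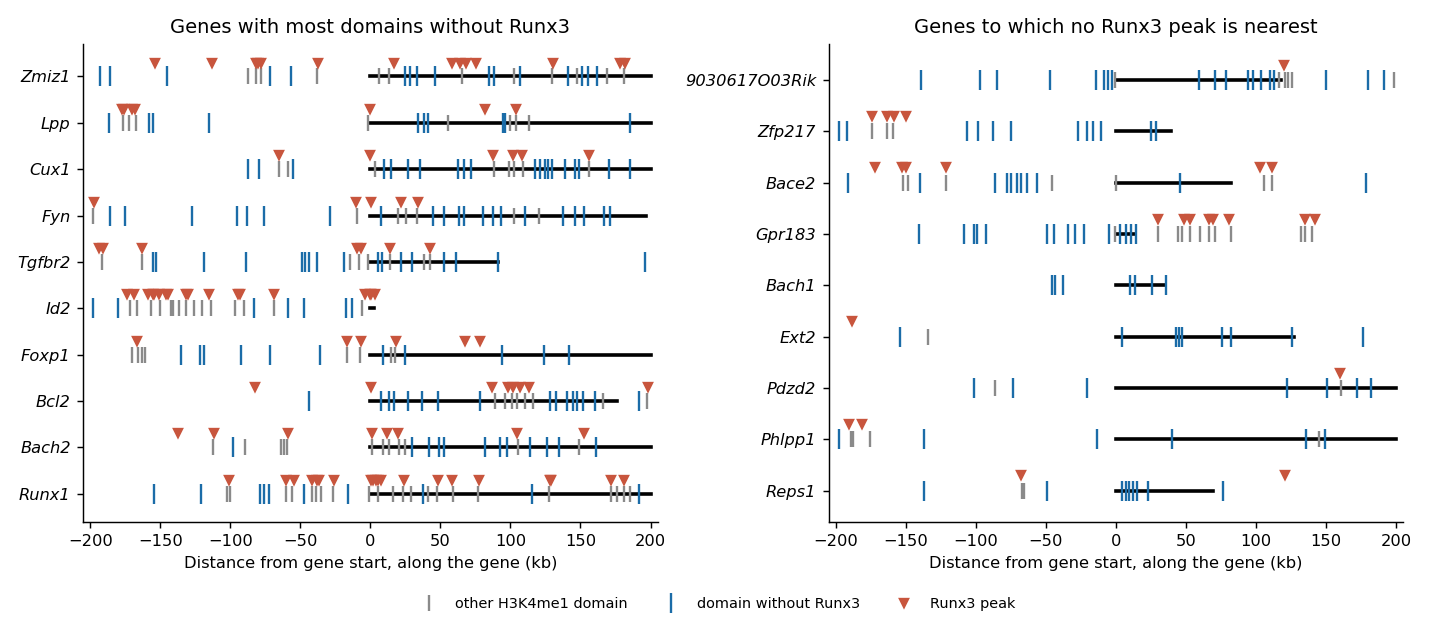
Position of Runx3-remote domains (blue), other H3K4me1 domains (grey) and Runx3 peaks (red triangles) within 200 kb of the start of the 10 genes with most Runx3-remote domains (left) and of 9 of the 10 with most among those to which no Runx3 peak was nearest (right). The x axis is the distance in kb from the gene start along the direction of transcription, and black lines are the genes. Features nearest to another gene are drawn too. On the left blue marks lie between groups of red triangles, for example at *Bcl2*, and on the right *Bach1* has no triangle in view.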

How the data were processed

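ChIP-seq of Runx3, H3K4me1 and NIS had been done in 5 libraries. The authors aligned reads to mm9 with ELAND, kept unique alignments, joined the reads of repeats and ran MACS for peak calling with NIS as its control. The values deposited by the authors, of no unit but position, are peak boundaries in bp, with neither scores nor libraries apart. No per-sample column was left unused.

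Starts were read as counted from 0 and are printed from 1. All 45880 peaks of both lists fell within NCBIM37 (mm9), whose sequence and GENCODE M1 annotation were used on 19 autosomes and chromosome X. Repeats were not masked. Motifs and 6-mers were called present or absent on either strand. Of the flanking windows, 1.24% overlapped another. Shares were compared by Fisher's exact or the exact McNemar test, and within GC strata by the Cochran-Mantel-Haenszel test. Intervals of shares are Wilson's. Those of odds ratios are Woolf's without strata and Robins-Breslow-Greenland intervals within GC strata. All of them cover counting error alone. Alternatives were other joining gaps, distances, widths, window sizes, TSS sets and GC strata.

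The members and gene and motif lists were chosen with earlier results of these data known. Genes named were up to 4 with most domains in each list and the 10 with most of all and of those without a nearest Runx3 peak, and 6-mers the 10 with the smallest p; 1 gene and 1 sequence so chosen are not reported here. Motif pairs, single RUNX words, GC-stratified 6-mers, splits of the domains and comparisons of the gaps of both classes were added after seeing the data. So were the motif comparison with domains that had Runx3 within 5 kb but none overlapping, and the gap pairs close in GC content. The domain rule and the 6-mer test had been tested on simulated data first. Tests ran in scipy 1.17.1, tables in pandas 2.3.3 and numpy 2.4.6 and figures in matplotlib 3.10.9, all under python 3.11.15.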

Additional observations from a re-analysis of the deposited data

How the results depend on the processing

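Of 389 values recomputed under 17 alternatives, 331 kept their direction and their side of the threshold (or stayed within 1.5 times for a count). The number of domains, the number of genes with one, the position and shape odds ratios other than that of exons, and the RUNX, ETS, AP-1, PU.1, T-box, CAGCTG and half-site odds ratios against flanking windows did so under every alternative run for them. The exon odds ratio was 1.10 and missed the threshold with domains under 2 kb. Within GC strata the 6-mers called against flanking windows were 398 more and 291 less frequent, and against domains overlapping Runx3 8 and 23. With domains under 2 kb the latter were 56 and 36, and with a joining gap under 500 bp 53 were more frequent. Within GC strata the odds ratio against flanking windows crossed 1 for C/EBP (1.16), CTCF (0.811), EBF (0.979), GATA (1.01), IRF (1.18), NFAT (1.02), SP1 (0.875), STAT (1.07) and TCF/LEF (1.07). It also crossed 1 for C/EBP (1.06) and STAT (1.03) over whole domains and for CTCF (0.698) in the central 200 bp. CTCF passed over whole domains (1.59) and with a joining gap under 500 bp (1.496). EBF did not pass in the central 200 bp (1.25), with a joining gap under 2 kb (1.25), without Runx3 within 10 kb (1.26) or with windows 5 kb away (1.18), nor did IRF with a joining gap under 2 kb (0.915) or over whole domains (0.936) and NFAT over whole domains (0.982).

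Against domains overlapping Runx3, the ETS odds ratio was 1.08 with the Runx3 peak centre inside the domain and 1.04 in the central 200 bp, neither past the threshold. Whole domains, which are wider where Runx3 overlaps, gave 0.481 for ETS, 0.573 for CAGGTG, 0.624 for AP-1 and 0.559 for T-box. The AP-1 odds ratio was 0.825 and passed with the peak centre inside, and was 1.001 with domains under 2 kb and 1.03 with a gap under 500 bp. Against domains with Runx3 within 5 kb but none overlapping it was 1.08, that of RUNX 1.12 and that of T-box 1.17. In gaps the AP-1 odds ratio was 1.20 for gaps of at least 400 bp, that of ETS 1.29 and past the threshold against the narrower peak, and that of RUNX 1.03 against the narrower peak and 1.13 for pairs close in GC content. Except where stated by construction, the cause was not tested.

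No paired analysis was possible because the Runx3 and NIS libraries share replicate numbers but the lists hold only joined peaks. Leaving out a library was not possible for the same reason. Peak depth is unknown, so a weak Runx3 peak below the calling threshold cannot be told from none, and H3K4me1 rests on 1 library.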
